A study of Mus musculus with 6 samples.

Results

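RNA was sequenced from cultured primary mouse microglia, the resident macrophages of the brain, in 3 control and 3 stimulated libraries. The genes described here are the transcription factor NRF2 (gene symbol Nfe2l2), its inhibitor Keap1 and 8 antioxidant genes that NRF2 is known to control and whose enzymes use no selenium, namely Slc7a11, Gclc, Gclm, Hmox1, Nqo1, Prdx1, Srxn1 and Txn1. They were found in the tables by symbol, and all 10 were among the 41079 genes of the deposited tables. Every one of the 10 had enough counts to be tested, as did 14618 genes in all. The cells came from the brains of C57Bl/6N mice aged 1 to 3 days and were shaken off mixed cultures whose medium had been supplemented with medium from L-929 cells, a source of the growth factor M-CSF. In the paper's protocol such cells were shaken off weeks after isolation, in repeated harvests. Which harvest supplied each library was not given in the sources used here. According to the paper, each flask was seeded from the pooled brains of several pups, pups of both sexes were used, all cells met serum briefly when they were plated, and control cells were then kept in serum-free DMEM/F12. The labels describe the stimulated cells as given human TGFbeta and human IL34 with CX3CL1, at 100 ng/mL each. In the paper's account these cells also had cholesterol, an insulin-transferrin-selenium supplement and wells coated with collagen IV, so the parts played by the cytokines, the lipid, the selenium mixture and the coating cannot be told apart. How long these 6 cultures were kept under the conditions was not given in the sources used here.

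NRF2 is a transcription factor that is made all the time and destroyed almost as fast. KEAP1 holds it in the cytoplasm and hands it to a ubiquitin ligase built on cullin 3. Oxidants and electrophiles modify cysteines of KEAP1, NRF2 then escapes, enters the nucleus, pairs with a small MAF protein and binds the antioxidant response element in front of its target genes. The targets supply glutathione, remove peroxides and quinones, break down heme and make NADPH. In microglia and other macrophages, which make reactive oxygen themselves, this program is known for limiting oxidative damage and inflammatory output. Because NRF2 is governed largely through its protein, the amount of its mRNA is not a measure of its activity.

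The transcripts of both regulators and of most targets were lower in the stimulated cultures. Of the 10 genes, 7 fell past a Benjamini-Hochberg adjusted p of 0.05 (quasi-likelihood test of edgeR, all tested genes adjusted together), while 15.2% of all genes were called lower. They were Prdx1, Slc7a11, Srxn1, Nqo1, Nfe2l2, Gclm and Keap1, which kept between 42.4% and 70.1% of their control level. None of the 10 was called higher, against 14.7% of all genes. The 10 genes were chosen with earlier results of these data known, so their counts beside those of all genes are a description. Taking an unadjusted p under 0.05, 1 gene, Gclc, was higher by edgeR. DESeq2 and limma on log2(FPKM + 1) called 0 of the 10 higher, against 15.3% and 10.1% of all genes. By CPM, the same 7 had all stimulated libraries below all control libraries, which held for 22.5% of all genes. By the deposited FPKM this also held for Hmox1 and Txn1. No member had all stimulated libraries above all control libraries, which held for 21.4% of all genes. Expression is given as CPM, counts scaled to library size with edgeR's TMM factors, and errors of log2 fold changes are standard errors (SE). The median log2 fold change, stimulated over control, was -0.76 over the 10 genes and 0.0079 over all genes tested. Gclc, Hmox1 and Txn1 did not pass the test.

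**Figure D1:**
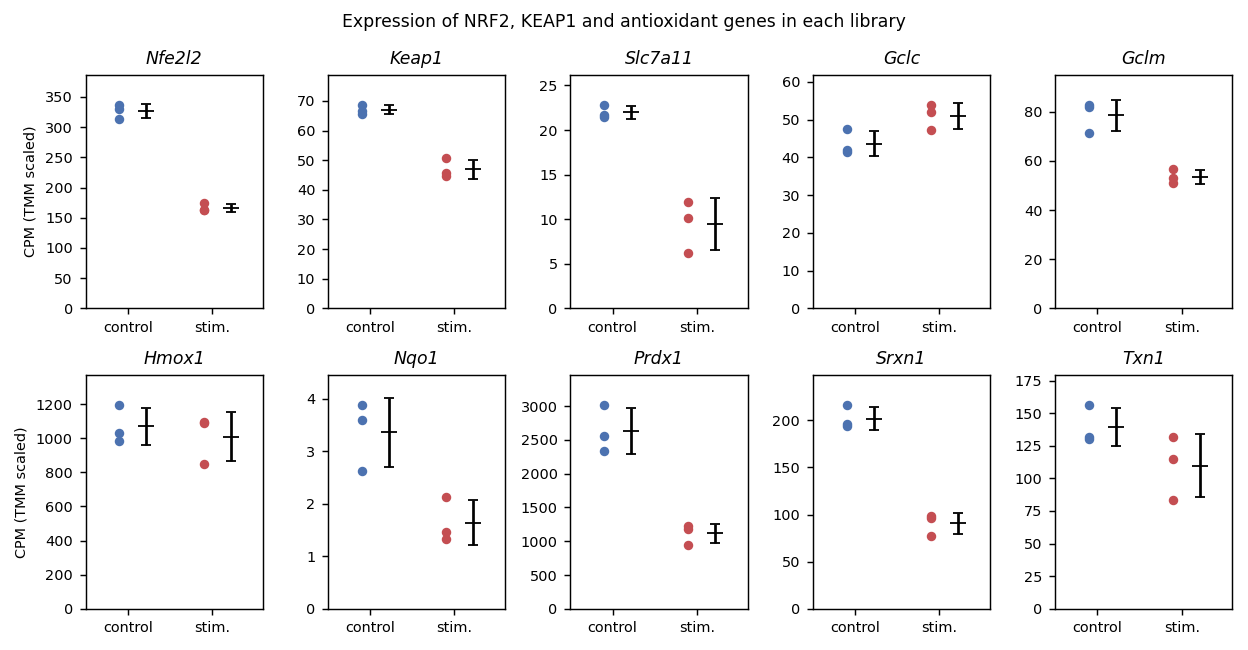
Counts scaled to library size with TMM factors (CPM, y axis, from 0, a scale of its own in each panel) of the 10 genes in each of the 3 control (blue) and 3 stimulated (red) libraries; black bars are mean ± SD. The red points lie below the blue ones for 7 genes and overlap them for Gclc, Hmox1 and Txn1.

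The 10 genes together took 0.446%, 0.475% and 0.515% of all counts in control libraries 1 to 3. In the stimulated libraries they took 0.234%, 0.257% and 0.267%. Prdx1 and Hmox1 supplied most of these counts. Without both of them the sum was 0.0901%, 0.0932% and 0.0931% of counts in control and 0.0498%, 0.0497% and 0.0520% in stimulated cultures, so the lower share did not rest on the most abundant genes. As the RNA came from whole cultures, fewer cells expressing a gene and less RNA per cell cannot be told apart.

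The libraries held between 20628148 and 27261839 counts. The 10 most abundant genes of each took 14.3% to 17.2% of the counts in control and 19.0% to 24.1% in stimulated libraries, and the scaling between libraries therefore bears on every fold change. With library size alone the median of all genes moved by -0.13, 32.3% of the genes called were higher against 49.1% with TMM, and 8 of the 10 NRF2-related genes were called lower with 0 higher, while 21.7% of all genes were called lower and 10.4% higher. Stimulated library 1 differed most from the other libraries of its group, and without both libraries numbered 1, 7 of the 10 were called lower and 0 higher, against 16% and 15.3% of all genes. The microglia markers Csf1r, Cx3cr1, Tmem119, P2ry12, Fcrl2, Aif1 and Itgam summed to between 4193 and 4317 CPM in control and between 6406 and 7127 CPM in stimulated cultures. By edgeR's test 5 of these 7 were higher, while Csf1r and Aif1 were lower. Summed markers of neurons were 2.05 to 3.41 CPM in control and 3.93 to 4.26 in stimulated libraries, those of astrocytes 30.6 to 33.5 and 21.4 to 25, those of oligodendrocytes 125 to 140 and 156 to 190, those of fibroblasts 21.3 to 27.8 and 22 to 78.7, and those of pericytes 0.81 to 1.26 and 0.34 to 3.13. The lower astrocyte sum rested on Aldh1l1. This gene had at least 15.1 CPM in each control library and at most 4.83 CPM in each stimulated one. Of the other astrocyte markers, the scarce Slc1a2 was lower in all stimulated libraries and Gja1 was higher in all of them. Gfap, Aqp4 and Aldoc overlapped between the groups. No marker was at 0 in all libraries, and the part of other cell types in the results was not tested. The paper describes the libraries as biological replicates. The labels do not tie them to separate cultures, so the p-values measure the spread between these 6 libraries.

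The sequence that NRF2 recognises with its MAF partner is known, and the promoters of the members were searched for it so that the letters can be read beside the expression values. The search string was the core TGACNNNGC on either strand, in the 250 bases before and 50 after each start site in the RefSeq promoter table (build GRCm38.p6). Of the 10 genes, 8 were matched in the table, and 4 of the 8 held the core. It was present in 12.4% of all 32851 promoters and in 23.7% of 97 promoters of the wider pathway genes listed further on. Keap1, Slc7a11, Nqo1 and Txn1 had no match in this window, which says only that these letters are absent from it. The windows around the 4 matches are shown on the gene's strand, with the core or its reverse complement in capitals.
Nfe2l2, chr2:75704865-75704913, minus strand: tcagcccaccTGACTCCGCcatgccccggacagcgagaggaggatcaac
Gclm, chr3:122245393-122245461, plus strand: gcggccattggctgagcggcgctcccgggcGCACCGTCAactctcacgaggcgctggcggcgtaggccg
Prdx1, chr4:116685436-116685504, plus strand: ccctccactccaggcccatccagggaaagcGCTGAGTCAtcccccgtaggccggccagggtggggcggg
Srxn1, chr2:152105542-152105570, plus strand: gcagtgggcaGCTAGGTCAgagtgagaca
The core began 240 bases before the start site in Nfe2l2, 134 before it in Gclm and 133 before it in Prdx1, and at base 29 after the start in Srxn1. In Prdx1 it overlaps the heptamer TGAGTCA, which the AP-1 family also binds and which, on either strand, was present in 5.2% of all promoters. The 4 genes with a core were all called lower, as were Keap1, Slc7a11 and Nqo1 without one, while Txn1 was not. A match of letters is a description of the promoter and not evidence of binding.

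Both genes of the regulatory pair fell. Nfe2l2 lies on chromosome 2 of GRCm39, from 75504739 to 75534985 on the minus strand, and encodes NRF2 itself. It was measured at 314, 330 and 336 CPM in control libraries 1 to 3 and at 163, 163 and 174 CPM in the stimulated ones. The libraries of each group lay close together and the groups far apart, with the stimulated mean at 50.9% of the control mean. Its mean was 327 ± 11.7 CPM in control and 166 ± 6.40 CPM in stimulated cultures (SD, n = 3 each), which is -0.97 ± 0.080 on the log2 scale (SE; adjusted p 1.2e-05, edgeR). Only 5.76% of genes had a lower log2 fold change.

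Keap1 (chromosome 9, 21141026 to 21150679, minus strand), the sensor that presents NRF2 for destruction, had 68.6, 65.7 and 66.6 CPM in control and 44.5, 50.6 and 45.6 CPM in stimulated libraries. The groups did not overlap, and the difference was smaller than that of Nfe2l2. The means were 67.0 ± 1.48 and 46.9 ± 3.27 CPM (SD, n = 3 each), which is -0.51 ± 0.085 on the log2 scale (SE; adjusted p 0.0012, edgeR). An exon of Gm16754 overlaps 620 bases of Keap1 exons on the opposite strand, and this gene was also lower, with a log2 fold change of -0.41 (adjusted p 0.018, edgeR). Whether the counting used strand is not given in the sources used here, so reads of the overlap cannot be assigned to either gene. Of the 75-base stretches in Keap1 transcripts, 17.2% also occur in transcripts of 2 other genes, matched on either strand as for the genes below. These are Gm16754 and Gm68155, which both overlap Keap1 exons on the opposite strand, so the shared stretches reflect that overlap.

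The count ratio of Nfe2l2 to Keap1, which does not depend on the scaling between libraries, was 4.58, 5.03 and 5.05 in control and 3.66, 3.21 and 3.81 in stimulated libraries. Every stimulated ratio was below every control ratio, with means of 4.89 ± 0.27 and 3.56 ± 0.31 (SD, n = 3 each) and a log2 difference of -0.46. The two-sided exact permutation p-value was 0.1, the smallest that 3 against 3 libraries can give.

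**Figure D2:**
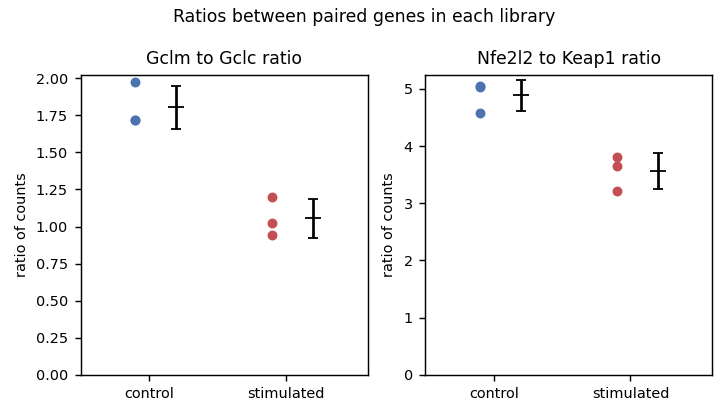
Ratio of counts (y axis, from 0) of Gclm to Gclc and of Nfe2l2 to Keap1 in each control (blue) and stimulated (red) library, with mean ± SD in black. In both panels the 3 stimulated ratios lie below the 3 control ratios.

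Glutathione, the main small antioxidant of the cell, is made from cysteine in steps that 3 of the genes serve, and 2 of these 3 fell. Slc7a11 (chromosome 3, 49846975 to 50398070, minus strand) encodes xCT, the transporter subunit that imports cystine in exchange for glutamate. It had 21.5, 22.8 and 21.6 CPM in control and 12, 6.26 and 10.1 CPM in stimulated libraries. The stimulated libraries were all lower and spread more widely than the controls, with library 2 lowest. Its mean fell from 22 ± 0.73 to 9.45 ± 2.92 CPM (SD, n = 3 each), which is -1.22 ± 0.20 on the log2 scale (SE; adjusted p 0.0010, edgeR). Of the 75-base stretches in Slc7a11 transcripts, 0.54% also occur in transcripts of 6 other genes. Among these is Tuba1b, with a mean of 17385.7 counts per library, while Slc7a11 had 147 to 591.

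Gclc (chromosome 9, 77661797 to 77701770, plus strand), the catalytic subunit of glutamate-cysteine ligase, which sets the pace of glutathione synthesis, had 41.4, 41.9 and 47.5 CPM in control and 53.9, 52.1 and 47.3 CPM in stimulated libraries. It had the highest log2 fold change of the 10 genes, but control library 3 and stimulated library 3 overlapped. The means were 43.6 ± 3.37 and 51.1 ± 3.43 CPM (SD, n = 3 each), and the difference of 0.23 ± 0.095 on the log2 scale (SE) did not pass the test (adjusted p 0.10, edgeR).

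Gclm (chromosome 3, 122039126 to 122065061, plus strand) encodes the modifier subunit that makes the ligase more efficient. It fell from 71.2, 82.7 and 81.8 CPM in the control libraries to 50.9, 53.2 and 56.6 CPM in the stimulated ones. The groups did not overlap. The means were 78.6 ± 6.41 and 53.6 ± 2.84 CPM (SD, n = 3 each), which is -0.55 ± 0.092 on the log2 scale (SE; adjusted p 0.0012, edgeR). Of the 75-base stretches in Gclm transcripts, 9.9% also occur in transcripts of 23 other genes. Among these genes is Ppia, which shares 482 stretches and had a mean of 16290.5 counts per library against 1564.17 for Gclm. The handling of such reads is not given in the sources used here, and its effect on Gclm was not tested.

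The proportion of the ligase's subunit transcripts was compared within each library. The count ratio of Gclm to Gclc was 1.72, 1.97 and 1.72 in control and 0.946, 1.02 and 1.20 in stimulated libraries. All stimulated ratios were below all control ratios, with means of 1.80 ± 0.15 and 1.05 ± 0.13 (SD, n = 3 each) and a log2 difference of -0.78. The two-sided exact permutation p-value was again 0.1, the smallest possible at this number of libraries.

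Of the enzymes for heme and quinones, Hmox1 was abundant and did not pass the test, while Nqo1 was scarce and fell. Hmox1 (chromosome 8, 75820241 to 75827217, plus strand), heme oxygenase 1, opens the heme ring to give biliverdin, iron and carbon monoxide. It had 986, 1031 and 1193 CPM in control and 847, 1094 and 1089 CPM in stimulated libraries. Stimulated library 1 was the lowest of the 6, and the other two lay within the control range. The means were 1070 ± 109 and 1010 ± 141 CPM (SD, n = 3 each), which is -0.083 ± 0.13 on the log2 scale (SE; adjusted p 0.68, edgeR). Without stimulated library 1 the log2 fold change was 0.029. It was -0.22 with library size alone (adjusted p 0.12, edgeR) and -0.23 with limma on log2(FPKM + 1) (adjusted p 0.22, limma). In the deposited FPKM values all stimulated libraries (513, 610 and 647) lay below all control libraries (648, 680 and 737). Hmox1 passed the test under no setting, and whether its groups overlapped depended on the scaling.

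Nqo1 (chromosome 8, 108113835 to 108129934, minus strand), which reduces quinones by a pair of electrons at once, had 2.62, 3.87 and 3.59 CPM in control and 1.47, 1.32 and 2.13 CPM in stimulated libraries. Those values rest on 60, 95 and 98 counts and on 31, 31 and 44 counts. The groups did not overlap, though control library 1 was nearer to stimulated library 3 than to the other controls. From 3.36 ± 0.66 to 1.64 ± 0.43 CPM (SD, n = 3 each), the change was -1.04 ± 0.26 on the log2 scale (SE; adjusted p 0.014, edgeR), with the largest error among the 10 genes. Without control library 2 the adjusted p-value was 0.065, and without control library 3 it was 0.053 (edgeR), within a range of 0.0036 to 0.065 over all settings, so the call depends on both. With limma on log2(FPKM + 1) the log2 fold change was -0.47, a scale that understates low genes.

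In the thiol system, which uses cysteines to reduce hydrogen peroxide, the peroxiredoxin and its repair enzyme fell by similar amounts. Prdx1 (chromosome 4, 116532123 to 116558398, plus strand) encodes peroxiredoxin 1, an abundant cytosolic enzyme that reduces peroxides. It had 2343, 2556 and 3013 CPM in control and 952, 1219 and 1180 CPM in stimulated libraries, with no overlap. The stimulated libraries lay far below the controls. Its mean fell from 2637 ± 342 to 1117 ± 144 CPM (SD, n = 3 each), which left 42.4% of the control level. This was the lowest log2 fold change of the 10 genes, at -1.24 ± 0.14 (SE; adjusted p 8.8e-05, edgeR), and 3.61% of all genes had a lower one. The gene AV051173 lies on the opposite strand and shares 576 bases of exon with Prdx1. It had a mean of 9114 counts per library against 45285.5 for Prdx1, and a log2 fold change of -1.25. Of the 75-base stretches in Prdx1 transcripts, 10.3% also occur in transcripts of 4 other genes. AV051173 holds 394 of these 593 stretches. The handling of such reads is not given in the sources used here.

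Srxn1 (chromosome 2, 151947436 to 151957687, plus strand) encodes sulfiredoxin, which restores peroxiredoxins that have been overoxidised. Its values were 194, 196 and 216 CPM in control and 77.7, 96.3 and 98.2 CPM in stimulated libraries. Again all stimulated libraries lay far below the controls. The mean went from 202 ± 12.2 to 90.7 ± 11.4 CPM (SD, n = 3 each), which is -1.15 ± 0.11 on the log2 scale (SE; adjusted p 2.7e-05, edgeR).

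Txn1 (chromosome 4, 57934208 to 57956424, minus strand) encodes thioredoxin, the small protein that passes electrons to peroxiredoxins. It had 130, 132 and 156 CPM in control and 83.2, 131 and 115 CPM in stimulated libraries. Stimulated library 2 reached the control range, while the other two were below it. In the deposited FPKM values all stimulated libraries (75.5, 110 and 102) lay below all control libraries (128, 130 and 144). With means of 139 ± 14.5 and 110 ± 24.5 CPM (SD, n = 3 each), the difference was -0.34 ± 0.15 on the log2 scale (SE) and did not pass the test (adjusted p 0.13, edgeR). Its side of the threshold depended on the setting. The log2 fold change was -0.48 with library size alone (adjusted p 0.017, edgeR) and -0.50 without stimulated library 2 (adjusted p 0.021, edgeR). Without stimulated library 1 it was -0.18 (adjusted p 0.18, edgeR), and over all settings the adjusted p ranged from 0.017 to 0.34.

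**Figure D3:**
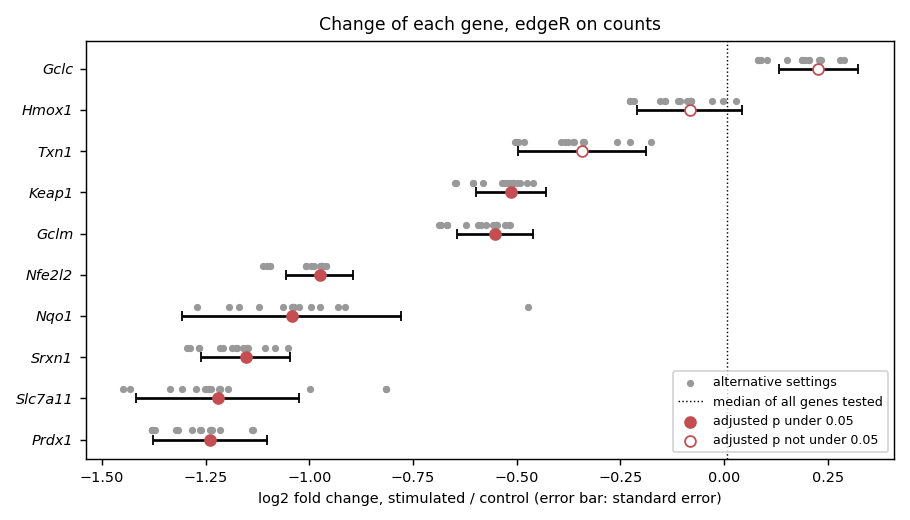
Log2 fold change, stimulated over control (x axis), of each gene (y axis) from edgeR's quasi-likelihood test, with error bars of 1 SE; filled circles passed the adjusted threshold of 0.05, small grey points are the values under other settings and the dotted line is the median of all genes tested. The 7 genes called lower lie between -1.24 and -0.51, and Txn1, Hmox1 and Gclc lie between -0.34 and 0.23.

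Levels of different genes can be compared only per length, for which the deposited FPKM values (fragments scaled by gene length and library depth) were used. They spanned from 1887 ± 179 FPKM for Prdx1 down to 1.02 ± 0.20 FPKM for Nqo1 in control cultures (SD, n = 3). Between them, in falling order of control level, came Hmox1 at 688 ± 45.0, Txn1 at 134 ± 8.89, Nfe2l2 at 87.0 ± 2.65, Srxn1 at 60.1 ± 1.43, Gclm at 38.5 ± 2.98, Keap1 at 15.2 ± 0.70, Gclc at 11.9 ± 0.47 and Slc7a11 at 2.38 ± 0.14 FPKM. No neighbours in this order overlapped in the control libraries.

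In the stimulated cultures the order was the same but for Gclc, at 12.7 ± 1.02 FPKM, which stood above Keap1, at 9.66 ± 0.26 FPKM (SD, n = 3 each). Prdx1 came down to 726 ± 74.4 FPKM and its libraries then overlapped those of Hmox1, at 590 ± 69.1 FPKM. Srxn1 at 24.5 ± 2.63 FPKM overlapped Gclm at 23.9 ± 1.53 FPKM, and Slc7a11 at 0.94 ± 0.32 FPKM overlapped Nqo1 at 0.45 ± 0.13 FPKM. The other neighbours remained apart, including Txn1 at 95.9 ± 18.1 FPKM and Nfe2l2 at 40.2 ± 2.59 FPKM. Within the ligase, the catalytic Gclc was below the modifier Gclm in both conditions on this scale.

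**Figure D4:**
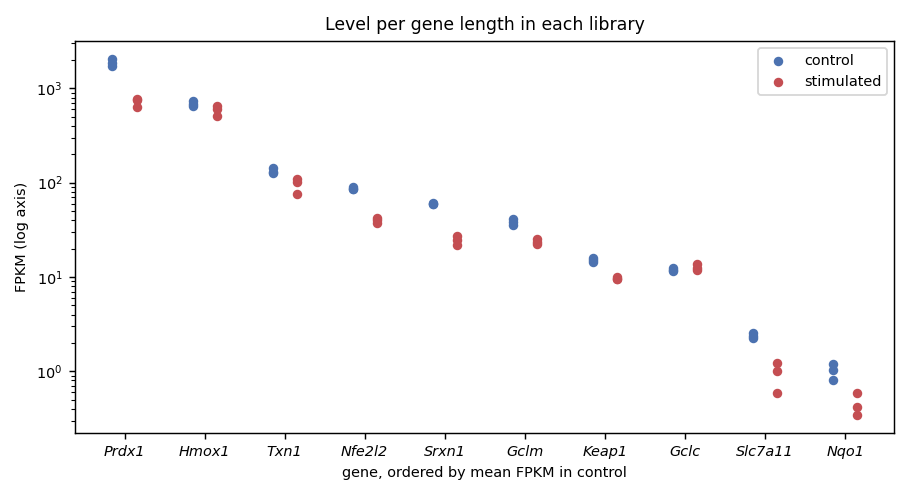
Deposited FPKM (y axis, log scale) of the 10 genes (x axis, ordered by control mean) in each control (blue) and stimulated (red) library. Control means run from 1887 for Prdx1 to 1.02 for Nqo1, and in the stimulated libraries Prdx1 overlaps Hmox1.

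The wider pathway was described with lists of further genes that NRF2 works with or that serve the same chemistry. Of 81 genes listed, 80 were in the table and 76 had enough counts to be tested. Of the 76, 29 fell (38.2%), 10 rose (13.2%) and 37 did not pass edgeR's test, with a median log2 fold change of -0.24. Over all genes tested, 15.2% were called lower and 14.7% higher. The lists too were chosen with earlier results of these data known, so this contrast is a description.

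Among partners and regulators of NRF2, 2 of 12 tested genes rose and 2 fell (16.7% each, edgeR, median log2 fold change -0.081). Both shares were close to those of all genes, 14.7% higher and 15.2% lower. Bach2, a repressor that competes for the same DNA element, rose from 10.4 to 24.2 CPM, which is 1.21 ± 0.13 on the log2 scale (SE). Maff, a small MAF protein, rose from 10.7 to 18.6 CPM (0.79 ± 0.15 SE). Sqstm1, the autophagy receptor p62 that draws KEAP1 away from NRF2, fell from 740 to 457 CPM, which is -0.70 ± 0.11 on the log2 scale (SE). The related factor Nfe2l1 fell from 201 to 148 CPM (-0.44 ± 0.082 SE). Bach1, the repressor best known at the Hmox1 gene, had a log2 fold change of -0.092 (adjusted p 0.66, edgeR), and the MAF partner Mafg had one of 0.041 (adjusted p 0.77, edgeR). Neither passed the test.

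Genes of glutathione synthesis and use went both ways, with 4 of 17 higher and 4 lower (23.5% each, median -0.082). Gsr, glutathione reductase, which recycles oxidised glutathione, fell in all libraries, from 91.9, 103 and 106 CPM in control to 38.4, 41.1 and 39.4 CPM in stimulated cultures, which is -1.34 ± 0.089 on the log2 scale (SE; adjusted p 2.8e-06, edgeR). Abcc1, which exports glutathione conjugates, fell from 155 to 79.1 CPM, which is -0.97 ± 0.12 on the log2 scale (SE). Gss, glutathione synthetase, fell from 16.1 to 11.4 CPM (-0.50 ± 0.12 SE). Slc3a2, the heavy chain that partners xCT and several other transporters, rose from 195 to 266 CPM, which is 0.45 ± 0.11 on the log2 scale (SE; adjusted p 0.014, edgeR). Its call, opposite to that of its partner Slc7a11, was lost without control library 1 or 2 or stimulated library 3 (adjusted p 0.062 to 0.072, edgeR) and with limma (0.055). Gsto1, an omega-class glutathione transferase, rose from 45.9 to 120.3 CPM (1.39 ± 0.13 SE), and the scarce Mgst2, a microsomal one, from 0.36 to 1.08 CPM (1.56 ± 0.35 SE).

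NADPH is the electron source of both the glutathione and the thioredoxin systems. Of 7 genes of its production and of the pentose phosphate pathway, 4 fell (57.1%) and none was called higher, and the median log2 fold change was -0.51. DESeq2 and limma on log2(FPKM + 1) also called 0 of the 7 higher, against 15.3% and 10.1% of all genes. With an unadjusted p under 0.05 by edgeR, 0 of the 7 were higher. In a list this short, 0 higher genes is a description. G6pdx, glucose-6-phosphate dehydrogenase, which opens the pentose phosphate pathway, had 259, 242 and 282 CPM in control and 124, 128 and 127 CPM in stimulated libraries. The groups were far apart, and the change was -1.04 ± 0.086 on the log2 scale (SE; adjusted p 1.2e-05, edgeR). Tkt, the transketolase of the same pathway, which makes no NADPH itself, fell from 366 to 239 CPM, which is -0.61 ± 0.11 on the log2 scale (SE). The other genes that fell were Pgd and Idh1, enzymes that do make NADPH, with log2 fold changes of -0.52 and -0.51, which were named after their values were known.

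The 9 genes of heme breakdown and iron, which act next to Hmox1, included 6 that fell (66.7%) and 1 that rose (11.1%), with a median log2 fold change of -0.74. Slc40a1, the iron exporter ferroportin, had 219, 217 and 211 CPM in control and 33.3, 31.8 and 31.1 CPM in stimulated libraries. It had the lowest log2 fold change of all genes in these lists, at -2.75 ± 0.082 (SE; adjusted p 4.0e-08, edgeR). The biliverdin reductases Blvrb and Blvra fell from 151 to 60.7 CPM and from 77.1 to 43.9 CPM. On the log2 scale these changes were -1.32 ± 0.17 and -0.81 ± 0.12 (SE). Fech, which puts iron into heme, rose from 48.6 to 59.4 CPM, which is 0.29 ± 0.082 on the log2 scale (SE; adjusted p 0.025, edgeR). That call was lost when any single library but stimulated library 1 was left out (adjusted p 0.059 to 0.12, edgeR), with library size alone (0.21) and with limma (0.19). Both reductases fell in cultures in which Hmox1 itself did not pass the test.

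Among 12 tested genes of carbonyl and quinone reduction and other detoxification, 6 fell (50%) and none was called higher, and the median log2 fold change was -0.42. DESeq2 and limma on log2(FPKM + 1) also called no gene of this group higher, against 15.3% and 10.1% of all genes. None was higher with an unadjusted p under 0.05 by edgeR. In a list this short, 0 higher genes is a description. Akr1b8, an aldo-keto reductase, fell from 11.7 to 2.76 CPM, which is -2.08 ± 0.21 on the log2 scale (SE). Osgin1, a stress-induced growth inhibitor, fell from 9.52 to 6.06 CPM (-0.65 ± 0.14 SE). Of the 6, only Akr1b8 and Nqo2, a quinone reductase with a log2 fold change of -0.46, reduce carbonyls or quinones. The others, beside Osgin1, were Ephx1, which hydrolyses epoxides, Ugdh, which makes UDP-glucuronate, and Esd, an esterase, with log2 fold changes of -0.63, -0.32 and -0.43. Nqo2, Ephx1, Ugdh and Esd were named after their values were known. Without control library 2 or 3, Ugdh (adjusted p 0.083 and 0.063, edgeR) and Esd (0.056 and 0.077) missed the threshold, as Ugdh did without stimulated library 3 (0.059).

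The remaining thiol and superoxide enzymes had 7 lower (36.8%) and 3 higher genes (15.8%) among 19, with a median log2 fold change of -0.11. Over all genes 14.7% were higher, close to the share in this list. The 3 higher calls, of Sod1, Prdx4 and (named after its value was known) Prdx6, were lost with limma on log2(FPKM + 1), which called 0 higher, and library size alone left 1. Sod2, the mitochondrial enzyme, had 164, 188 and 202 CPM in control and 54.9, 64.4 and 66.6 CPM in stimulated libraries, which is -1.57 ± 0.11 on the log2 scale (SE; adjusted p 4.2e-06, edgeR). The cytosolic Sod1 rose from 63.6 to 96.7 CPM (0.60 ± 0.17 SE, adjusted p 0.024 by edgeR), a call lost without control library 1 or 2 or stimulated library 2 or 3 (adjusted p 0.055 to 0.098) and with limma (adjusted p 0.084). Txnrd1, the reductase that recharges thioredoxin, fell from 276 to 204 CPM, which is -0.44 ± 0.089 on the log2 scale (SE). It is a selenoenzyme and was kept outside the 10 genes for that reason. Txnip, which binds and inhibits thioredoxin, fell from 297 to 134 CPM, which is -1.15 ± 0.080 on the log2 scale (SE), so that it and the reductase were both lower beside a Txn1 that did not pass the test. Sesn1, a sestrin, fell from 194 to 83.1 CPM (-1.22 ± 0.081 SE). Prdx4, the peroxiredoxin of the endoplasmic reticulum, went the other way from Prdx1, from 39 to 57.9 CPM (0.57 ± 0.19 SE, adjusted p 0.042 by edgeR), but its values of 34.4, 40.1 and 42.4 CPM in control and 40.8, 73.4 and 59.5 CPM in stimulated libraries overlapped. Its call was lost when any single library but stimulated library 1 was left out (adjusted p 0.068 to 0.16, edgeR), with library size alone (0.067) and with limma (0.13).

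The count of higher genes in these lists was less steady than the count of lower ones. With limma on log2(FPKM + 1), 5 of the 76 were higher and 33 lower, while 10.1% of all genes were higher and 22.3% lower. Leaving out single libraries gave 5 to 14 higher and 26 to 32 lower, while 10.7% to 17.4% of all genes were higher and 11% to 17.7% lower.

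**Figure D5:**
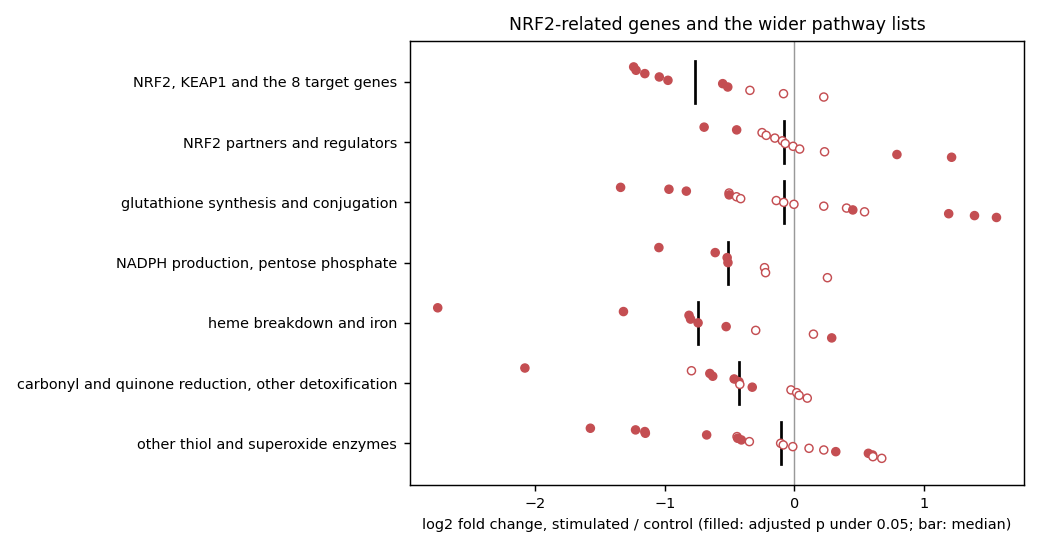
Log2 fold change, stimulated over control (x axis), of every tested gene in the 10-gene group and in each list of the wider pathway (y axis); filled points passed the adjusted threshold of 0.05 by edgeR and the black bar is the list's median. The medians run from -0.76 for the 10 genes and -0.74 for heme breakdown and iron to -0.081 for partners and regulators.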

How the data were processed

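Paired-end reads had been aligned to mm39 by the authors (HISAT2, then featureCounts, in Galaxy), who deposited raw counts and FPKM values per gene for 6 libraries; versions, annotation, strand and multi-mapping settings are not given in the sources used here. Columns were mapped through the labels, and no column of another sample was present. Counts were compared in R 4.3.3 with edgeR 4.0.16 (filterByExpr, TMM, trended dispersion, glmQLFit and glmQLFTest, no covariates, Benjamini-Hochberg adjustment, threshold 0.05). The standard error (SE) is the size of the log2 fold change over the square root of F. The common dispersion was 0.0164, so replicates varied by 0.13 (coefficient of variation).

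The members and lists were chosen with earlier results of these data known. Named from each wider list are the 2 genes called higher with the highest and the 2 called lower with the lowest log2 fold changes, where there were any, and, whatever their values, Bach1, Mafg, Slc3a2, Gsr, Gss, Txnrd1, Txnip, Blvra and Blvrb. Alternatives were other scalings, DESeq2 1.42.0, limma 3.58.1 on log2(FPKM + 1) and log2(FPKM + 0.1), whose fold changes understate low genes, count filters, a replicate block, an adjusted p-value under 0.01 and libraries left out. Positions are GENCODE M39 on GRCm39, and promoters are from RefSeq on GRCm38.p6. On simulated counts, with 197 of 14433 tested genes changed, edgeR recovered 87.8% of those changed 2-fold and 99.0% of those changed 4-fold. Unchanged genes made up 3.16% of its calls. In the data 2142 genes were called higher and 2218 lower, and these rates were not tested with that many changed genes. A further microglia marker of the list is not reported here.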

Additional observations from a re-analysis of the deposited data

How the results depend on the processing

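Over 16 settings other than the main one, 150 of 159 values of single genes kept their direction and side of the threshold. The count of the 10 genes called lower was 6 to 8, and 0 were higher under every setting run. Over these settings 9.85% to 25.6% of all genes tested were called lower and 9.32% to 17.4% higher. Hmox1 ranged from -0.15 to 0.029 when single libraries were left out, and turned positive only without stimulated replicate 1. Nqo1 missed the threshold without control replicate 2 or 3. Txn1 passed it under 6 settings, namely library size alone, the replicate block, without stimulated replicate 2 and limma on FPKM in each of its 3 forms. Both ratios kept their direction under all 8 alternatives. Among these, the ratio of FPKM values differs from the count ratio only by gene length, so its log2 difference had to be the same. The others left out libraries of the same set. Wider pathway genes called higher, 10 in the main test, ranged from 5 to 14 with single libraries left out, against 10.7% to 17.4% of all genes. They numbered 5 with limma on log2(FPKM + 1), 5 on log2(FPKM + 0.1), 3 with limma at a mean FPKM of at least 1 and 5 at an adjusted p-value under 0.01. Over all genes, 1176 of 11572 tested were higher with limma at a mean FPKM of at least 1. At an adjusted p-value under 0.01, 1409 of 14618 were higher and 1464 lower. Limma on FPKM moved the median of all genes by -0.13 to -0.14, and 28.4% to 31.3% of its calls were higher. The replicate block gave 8 of the 10 genes lower, while it called 17.3% of all genes lower and 16.4% higher. Deviations of same-numbered libraries correlated at 0.27, -0.01 and 0.18, so the numbers were not taken to pair the libraries. Nqo1, with 31 to 98 counts per library, is the member whose precision is most limited by depth. The cause of these changes was not tested.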

Other observations

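Some abundant genes of the same chemistry fall outside the rule for named genes and were chosen after seeing their values. Catalase (Cat), which destroys hydrogen peroxide in peroxisomes, fell from 348 ± 32.1 to 157 ± 7.08 CPM (SD, n = 3 each), which is -1.15 ± 0.094 on the log2 scale (SE, edgeR). The chains of the iron store ferritin differed in their calls. The heavy chain Fth1 fell from 12471 ± 2885 to 7454 ± 1187 CPM, or by -0.74 ± 0.18 on the log2 scale (SE; adjusted p 0.012, edgeR), while the light chain Ftl1 went from 8877 ± 1299 to 9833 ± 2524 CPM and did not pass the test (0.15, adjusted p-value 0.62, edgeR). The difference between the chains was not tested. Slc48a1, which moves heme out of lysosomes, fell from 340 to 195 CPM (-0.80 ± 0.10 SE), and glutaredoxin (Glrx), which removes glutathione from protein cysteines, from 194 to 121 CPM (-0.68 ± 0.13 SE).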
